A study of Mus musculus with 6 samples.

Results

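The BCL2 family decides at the mitochondrial outer membrane whether a cell survives or enters apoptosis, and 10 of its genes are described here. They are the survival genes Bcl2, Bcl2l1 and Mcl1, the pore-forming effectors Bax and Bak1, and the BH3-only genes Bcl2l11, Bid, Bad, Bbc3 and Pmaip1. The members were chosen by name among 21887 protein-coding genes of the gene table, and each was measured over its mm10 gene span plus 2 kb on each side. The rule used no measured value, but the members were chosen with earlier results of these data known.

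Group 2 innate lymphoid cells (ILC2s), which are tissue lymphocytes that make type 2 cytokines, were sorted from mouse gut and grown with the lymphocyte growth factors IL-2 and IL-7 and the alarm cytokines IL-33 and IL-25. The sample labels name colon as the tissue. The cells were given FK866 plus succinate, given FK866 alone, or kept as Control, with 2 libraries in each of the 3 groups, and all groups shared the same cytokines. FK866 inhibits NAMPT, an enzyme of NAD salvage, and succinate is an intermediate of the tricarboxylic acid cycle. No source used here gives doses, times, strain or age, or says whether the libraries of a group came from separate cultures or animals. All p-values therefore reflect only the spread among the samples at hand, which may be technical. The cultured cells were sorted again and profiled by CUT&Tag, in which an antibody on chromatin directs a transposase to cut the DNA beside its target. Which protein or mark the antibody bound is unnamed in those sources, so a peak is a stretch enriched for an unknown target and says nothing by itself about transcription.

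In healthy lymphocytes the survival proteins BCL2, BCL-XL (from Bcl2l1) and MCL1 hold the effectors BAX and BAK in check. BH3-only proteins block the survival proteins or engage the effectors directly, after which the effectors form pores and cytochrome c leaves the mitochondrion. Signals from IL-7 and IL-2 are known to sustain Bcl2 and Mcl1 in lymphocytes, FOXO factors are known activators of Bcl2l11 and Bbc3, and p53 is a known activator of Bax, Bbc3 and Pmaip1.

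The peak lists had 45446 and 56361 entries for FK866 plus succinate, 40320 and 43468 for FK866, and 50489 and 41023 for Control. Median peak widths were 618 and 528 bp with FK866 plus succinate, 737 and 651 bp with FK866, and 616 and 723 bp in Control, so the second FK866 plus succinate library had the most and the narrowest peaks. Of 10 ILC2 marker genes, including Gata3, Rora and Il1rl1, 10 had a peak in all 6 libraries. The same held for 5 of 8 T cell, 4 of 6 B cell, 4 of 6 epithelial, 2 of 6 ILC1 and NK cell, 1 of 6 myeloid and 1 of 6 ILC3 markers, while Cd8a, Cd8b1, Ms4a1, Adgre1, Krt20, Ncr1, Klrb1c, Ifng, Il23r and Il17a had no peak in any library. Peaks covered between 7.47% and 7.59% of the summed ILC2 marker windows with FK866 plus succinate, between 7.44% and 8.0% with FK866, and between 7.71% and 8.19% in Control. By the same sum the ILC1 and NK cell markers were lower in all 4 treated libraries than in Control. They were at 5.59% to 6.51% with FK866 plus succinate, at most 6.79% with FK866 and 7.77% to 7.91% in Control. Of these genes 3 had a peak in at least 2 libraries. Taken singly, 0 of the 3 were lower without overlap in FK866 than in Control, beside 19.9% of all genes. In FK866 plus succinate 2 were, beside 24.5%. T cell markers were at 5.90% to 8.40% with FK866 plus succinate, 7.07% to 8.77% with FK866 and 6.19% to 6.71% in Control, and B cell markers at 2.38% to 2.40% with FK866 plus succinate, 2.16% to 2.23% with FK866 and 2.45% to 3.46% in Control. The part of these shifts in the members' values was not tested.

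Every one of the 10 genes had a peak in all 6 libraries. Promoter windows of RefSeq, assembly GRCm38.p6, matched 9 of the 10 genes with 15 windows, each reaching from 250 bases before to 50 bases after a start, and Pmaip1 had none. The windows were rich in G and C, with a median of 65.7% against 52.7% over all 32851 promoter windows, and in CG pairs, with a median of 27 against 7. The letters of 4 known motifs were searched on both strands. The GC box GGGCGG lay in 10 of the 15 windows (66.7%), at 7 of the 9 genes, against 35.7% of all windows. The 15 windows are not independent, since some genes have several and those of Bbc3 starts 2 and 3 overlap. The FOXO motif GTAAACA lay in 2 of 15 (13.3%), against 3.65% of all windows, 1 at Bcl2l11 and 1 at Bbc3. The E box CACGTG lay in 2 of 15 (13.3%), against 7.15%, at Bax and Bbc3. The STAT motif TTCNNNGAA lay in 0 of 15, against 8.3%, which says only that these letters are not in these windows. A match of letters is no evidence that a factor binds there.

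The promoters of 5 genes are printed 5′ to 3′ on the gene's own strand, because each lies under a peak in all 6 libraries and together they hold the survival genes Bcl2 and Mcl1, the effector with E boxes and both FOXO matches. Capitals mark the GC box, FOXO and E box letters on either strand.
Bcl2, chr1:106714241-106714540, minus strand: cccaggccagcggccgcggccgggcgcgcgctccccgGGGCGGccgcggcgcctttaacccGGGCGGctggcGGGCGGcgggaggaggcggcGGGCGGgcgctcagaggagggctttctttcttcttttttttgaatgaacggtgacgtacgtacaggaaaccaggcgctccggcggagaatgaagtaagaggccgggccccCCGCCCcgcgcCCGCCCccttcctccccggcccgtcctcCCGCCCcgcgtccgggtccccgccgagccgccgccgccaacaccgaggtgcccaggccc
Mcl1, chr3:95658471-95658770, plus strand: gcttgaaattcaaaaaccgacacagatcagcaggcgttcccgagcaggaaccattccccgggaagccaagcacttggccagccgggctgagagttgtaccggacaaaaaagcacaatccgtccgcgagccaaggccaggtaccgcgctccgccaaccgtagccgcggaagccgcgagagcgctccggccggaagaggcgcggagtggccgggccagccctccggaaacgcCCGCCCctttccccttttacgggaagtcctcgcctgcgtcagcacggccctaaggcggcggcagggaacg
Bax, chr7:45466849-45467148, minus strand: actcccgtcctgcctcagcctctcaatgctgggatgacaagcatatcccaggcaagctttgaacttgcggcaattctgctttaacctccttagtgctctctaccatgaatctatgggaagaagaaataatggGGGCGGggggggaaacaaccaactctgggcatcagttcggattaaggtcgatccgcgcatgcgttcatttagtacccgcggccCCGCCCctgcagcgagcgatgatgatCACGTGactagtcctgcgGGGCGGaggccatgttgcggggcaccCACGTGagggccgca
Bcl2l11 start 1, chr2:128125788-128126087, plus strand: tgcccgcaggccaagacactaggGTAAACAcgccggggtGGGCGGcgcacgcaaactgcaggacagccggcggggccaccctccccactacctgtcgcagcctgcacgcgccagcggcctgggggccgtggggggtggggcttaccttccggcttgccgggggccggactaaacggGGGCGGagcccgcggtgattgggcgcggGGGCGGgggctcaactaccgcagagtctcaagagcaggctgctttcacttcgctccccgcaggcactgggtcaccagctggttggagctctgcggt
Bbc3 start 2, chr7:16310011-16310310, plus strand: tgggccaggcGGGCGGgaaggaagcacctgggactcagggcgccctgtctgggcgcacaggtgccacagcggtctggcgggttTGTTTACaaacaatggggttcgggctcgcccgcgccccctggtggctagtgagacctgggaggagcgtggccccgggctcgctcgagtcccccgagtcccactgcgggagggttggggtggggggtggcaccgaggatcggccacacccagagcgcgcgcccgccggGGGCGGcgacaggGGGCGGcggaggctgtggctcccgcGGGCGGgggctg

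None of the 10 genes passed the test on covered length, with FK866 or with FK866 plus succinate. Covered length is the number of base pairs of a gene's window that lie under peaks, so it records how wide and how many the peaks are and not how high. limma on log2(bp + 500), fitted to the 15362 genes with a peak in at least 2 libraries, called 0 of 10 members and 0 of 15362 genes (0.0%) at a Benjamini-Hochberg adjusted p of 0.05. The same was found for FK866 plus succinate against FK866 and against Control (0 of 10 members and 0.0% of genes each). At an unadjusted p of 0.05 limma passed 812 genes (5.29%) for FK866 against Control and 1362 (8.87%) for FK866 plus succinate against FK866, with 0 members in either. It passed 1377 genes (8.96%) for FK866 plus succinate against Control, and Mcl1 was the 1 member among them. The 3 comparisons share libraries and are not independent. The median log2 change of the members was -0.014 for FK866 against Control, beside -0.023 over all genes. It was -0.042 for FK866 plus succinate against FK866, beside -0.005, and -0.10 for FK866 plus succinate against Control, beside -0.029.

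Without a test, 4 members were lower in FK866 than in Control with no overlap of the libraries (Bcl2l1, Mcl1, Bcl2l11 and Bbc3), beside 19.9% of all genes, and Bak1 alone was higher, beside 12.8%. Set against FK866, FK866 plus succinate was lower at Bak1 and Bad, 2 of 10 beside 21.8% of genes, and 0 of 10 were higher, beside 17.9%. Set against Control, FK866 plus succinate was lower at 4 (Mcl1, Bak1, Bad and Bbc3), beside 24.5%, and higher at 1 (Bid), beside 13.4%. By number of peaks, 2 members were lower in FK866 than in Control (Bcl2l11 and Bbc3), beside 6.73%, and 0 higher, beside 3.38%. Several of these orders rest on small peaks or on the 2 kb on each side. Without the 2 kb, Bak1 was lower in FK866 than in Control, and the 2 members lower in FK866 plus succinate than in FK866 were Mcl1 and Bbc3 in place of Bak1 and Bad.

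**Figure D1:**
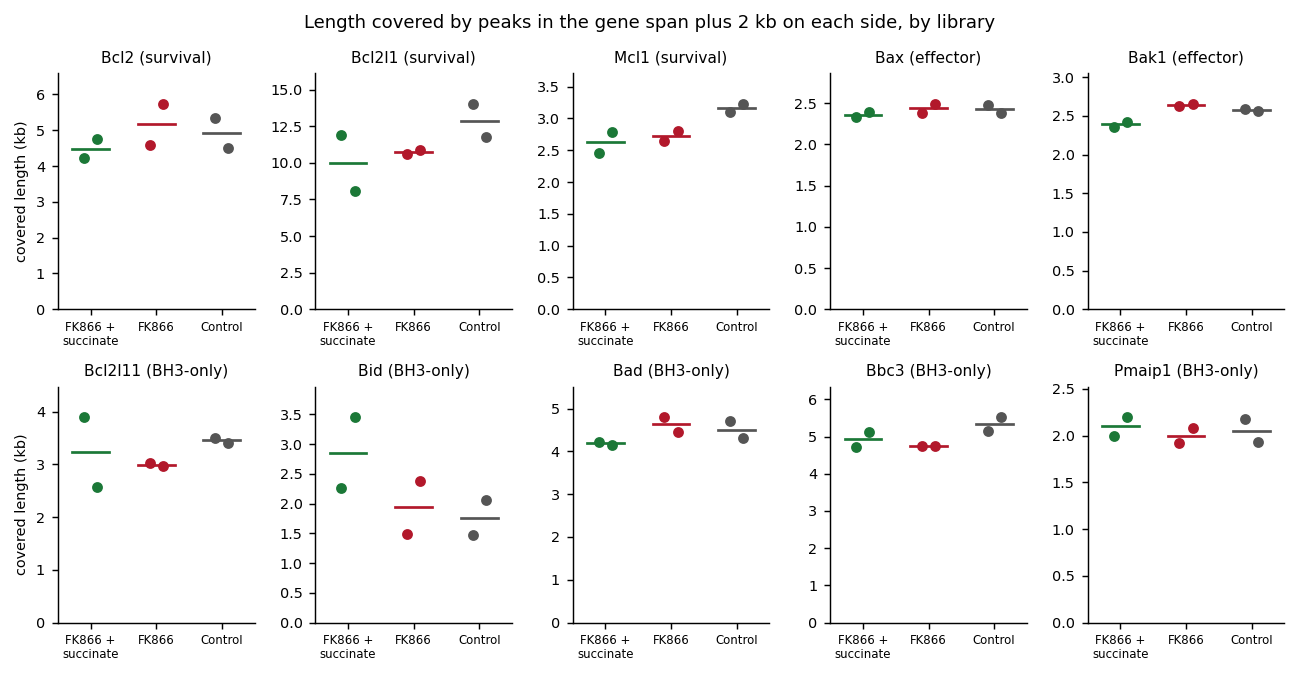
Covered length in kb (vertical axes, each from 0) of the 10 genes in the FK866 plus succinate, FK866 and Control libraries, with points for libraries and bars for means of 2. Mcl1 lies between 2.46 and 2.80 kb in the 4 treated libraries and above 3 kb in both Control libraries. Bbc3 also lies below both Control libraries in all 4 treated ones, while the groups of Bcl2, Bax and Pmaip1 overlap in every comparison.

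Mcl1, whose short-lived protein binds BIM and NOXA, was the survival gene with the most even difference. Peaks covered 2460 and 2792 bp with FK866 plus succinate, 2651 and 2796 bp with FK866, and 3098 and 3227 bp in Control. All 4 treated libraries lay below both Control libraries, and the 2 treated groups overlapped. Summed coverage of the ILC1 and NK cell markers, and of the B cell markers, was lower in the same libraries. The part of either in this difference was not tested. The log2 change was -0.18 (SE 0.087, limma adjusted p = 1.0) for FK866 against Control, -0.05 (SE 0.087, adjusted p = 0.902) for FK866 plus succinate against FK866, and -0.23 (SE 0.087, adjusted p = 0.550) for FK866 plus succinate against Control.

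The difference of both treated groups from Control at Mcl1 lay at the downstream side of 1 peak region over the start, chr3:95658079-95661305. Downstream of the start site this peak reached 1930 and 2023 bp with FK866 plus succinate, 2018 and 2153 bp with FK866, and 2584 and 2584 bp in Control. Upstream it reached 529 and 505 bp with FK866 plus succinate, 632 and 642 bp with FK866, and 513 and 642 bp in Control. Control overlapped both treated groups there, while FK866 plus succinate was shorter than FK866 without overlap upstream and overlapped it downstream. The region's covered length was 2460 and 2529 bp with FK866 plus succinate, 2651 and 2796 bp with FK866, and 3098 and 3227 bp in Control, so that the 3 groups followed each other without overlap. In the same fit over 51273 regions its log2 change was -0.29 (SE 0.035, limma adjusted p = 0.168) for FK866 plus succinate against Control. For FK866 against Control it was -0.18 (SE 0.035, adjusted p = 0.304), and 0 of 51273 regions (0.0%) passed in any comparison. At an unadjusted p of 0.05 limma passed 3572 regions (6.97%) for FK866 against Control, 5889 (11.5%) for FK866 plus succinate against FK866 and 6153 (12.0%) for FK866 plus succinate against Control. Of the members' 37 regions in that fit these held 7, 6 and 7. The Mcl1 start region was among them in all 3 comparisons, which share libraries and are not independent. How many of all regions did so was not counted. A peak of 263 bp, 5651 bp downstream of the start, was found in the second FK866 plus succinate library alone and made up the rest of that library's value.

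By rank the start peak of Mcl1 overlapped between FK866 and Control. Its strength was taken as the percentile of its -log10 p within its own library, where 100 is the strongest peak of the list. It stood at percentile 86.9 and 89.7 with FK866 plus succinate, 86.7 and 83.9 with FK866, and 85.7 and 86.6 in Control. The FK866 plus succinate libraries ranked highest here, but in lists brought to equal length they stood at 85.3 and 85.5, against 86.7 and 82.6 for FK866 and 82.1 and 86.4 for Control, and all groups overlapped.

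Start peaks were between 1429 and 1613 bp wide at Bcl2, the narrowest case beside Bid, and between 4734 and 4780 bp at Bbc3, the widest. Of the 9 genes with a listed start, 4 had a narrower start region in FK866 than in Control without overlap (Mcl1, Bax, Bak1 and Bbc3). This stands beside 17.3% of the 22049 regions with a peak in all 6 libraries. A wider one was found at 1 gene (Bad), beside 15.8%. The nearest libraries of FK866 and Control were at 2796 and 3098 bp for Mcl1 and 1783 and 1786 bp for Bax. They were at 1752 and 1758 bp for Bak1, 4761 and 4775 bp for Bbc3, and 2149 and 2146 bp for Bad. All but the order at Mcl1 thus rest on small gaps. In FK866 plus succinate against FK866, 6 were narrower (Mcl1, Bak1, Bcl2l11, Bid, Bad and Bbc3), beside 31.3%, and 0 wider, beside 10.4%. In FK866 plus succinate against Control, 4 were narrower (Mcl1, Bax, Bak1 and Bbc3), beside 32.3%, and 1 wider (Bcl2l1), beside 9.81%. These shares are over shared regions anywhere in the genome. A share over start regions alone was not computed, so the counts cannot be read as more or fewer than at other starts. Median peak widths of the FK866 plus succinate lists were below those of both FK866 lists, and below both Control lists in the second library only. The part of this in the members' widths was not tested.

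**Figure D2:**
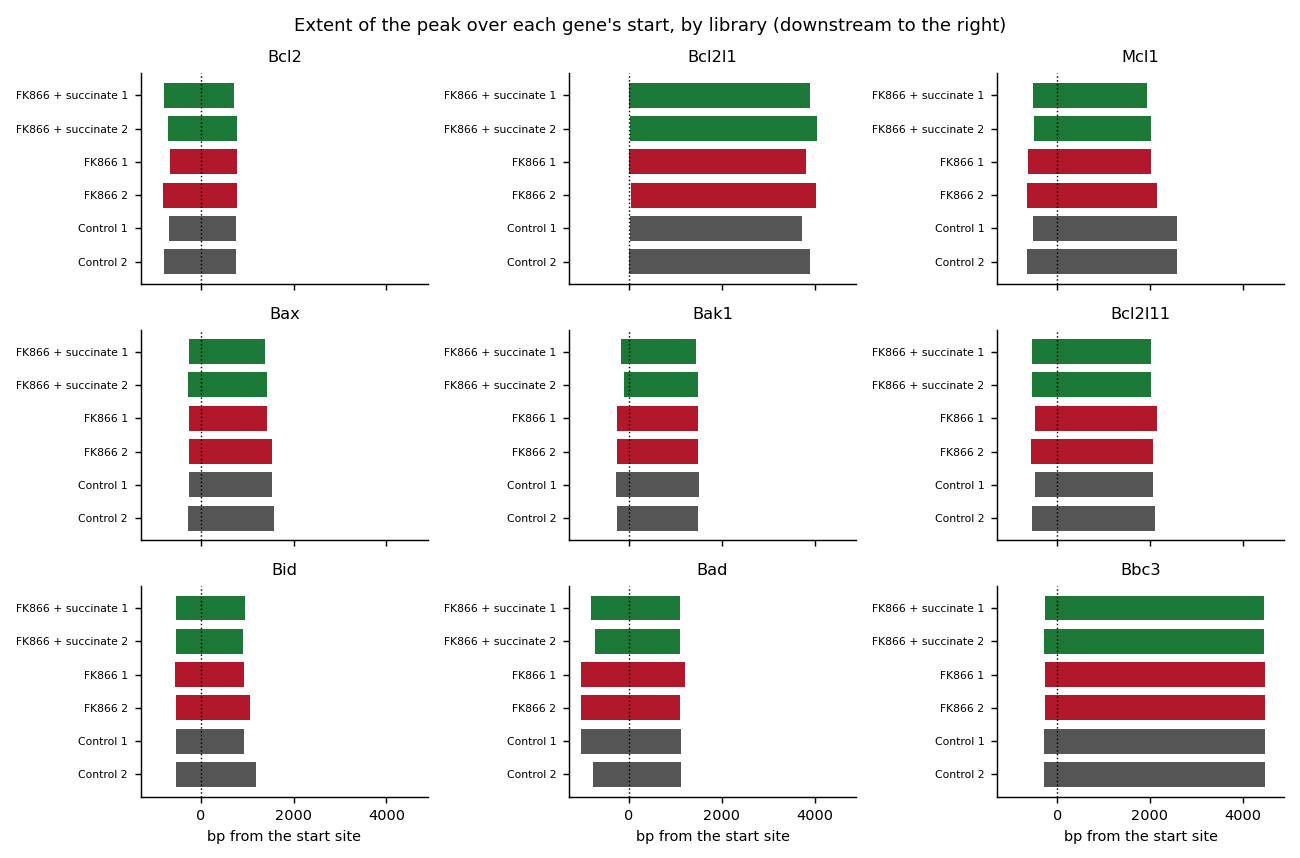
Extent of the peak at each gene's start in bp from the most upstream listed start of the region (horizontal axes, downstream to the right), 1 bar per library and colours for groups. At Bcl2l1 the peak reaches that start in 2 libraries only. The Mcl1 peak ends 2584 bp downstream in both Control libraries and between 1930 and 2153 bp in the treated ones, while the Bbc3 peak runs 4462 bp or more in all 6.

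Bcl2 lies on chromosome 1 in a window of 180115 bp, of which peaks covered a mean of 2.70%, the lowest share among the members. Peaks covered 4222 and 4758 bp with FK866 plus succinate, 4594 and 5734 bp with FK866, and 5343 and 4519 bp in Control. The 3 groups overlapped, and the log2 change of FK866 against Control was 0.06 (SE 0.15, limma adjusted p = 1.0), or -0.29 over the higher-scoring 50% of each list. Of its 9 merged regions, all 6 libraries shared 4, and 4 were seen in a single one. The 4 shared regions were the start region, chr1:106713502-106715114, a region centred 2024 bp downstream of the start, and 2 far regions centred 101562 and 113359 bp downstream, inside the gene span. The region near the start, chr1:106711539-106712993, covered 1434 and 1284 bp with FK866 plus succinate, 928 and 1226 bp with FK866, and 1225 and 967 bp in Control. Both FK866 plus succinate libraries were above the other 4, at a log2 change of 0.24 (SE 0.13, limma adjusted p = 0.649) against FK866. The region centred 101562 bp downstream went the other way, with 569 and 815 bp with FK866 plus succinate, 1111 and 1017 bp with FK866, and 1286 and 864 bp in Control (log2 change -0.40, SE 0.18, limma adjusted p = 0.510 against FK866).

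Bcl2l1, which encodes BCL-XL, held 27 of the 60 merged regions of the members. Peaks covered 11875 and 8106 bp with FK866 plus succinate, 10598 and 10844 bp with FK866, and 14016 and 11737 bp in Control. Both FK866 libraries lay below both Control libraries, and the FK866 plus succinate libraries lay on either side of the FK866 ones. The log2 change was -0.25 (SE 0.20, limma adjusted p = 1.0) for FK866 against Control and -0.37 (SE 0.20, adjusted p = 0.673) for FK866 plus succinate against Control. The second value moved with single libraries, at -0.63 without the first FK866 plus succinate library and -0.11 without the second, and against FK866 the change was -0.38 and 0.14 in these settings. Over the higher-scoring 50% of each list it was -0.11 against Control and 0.22 against FK866. The start region, chr2:152827671-152831733, spans 3 listed starts and covered between 3710 and 4037 bp in every library, so the spread came from the other regions of the gene. The most upstream of the 3 starts lay under a peak in 2 of the 6 libraries.

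Most regions within Bcl2l1 were seen in few libraries: 3 of the 27 were shared by all 6 and 10 were in a single one. The widest of the shared inner regions, chr2:152788577-152791240, is centred 38581 bp downstream of the nearest start. It covered 1670 and 1787 bp with FK866 plus succinate, 1468 and 1530 bp with FK866, and 2525 and 1969 bp in Control. The 3 groups did not overlap, with FK866 lowest and Control highest. The log2 change was -0.45 (SE 0.10, limma adjusted p = 0.304) for FK866 against Control and 0.16 (SE 0.10, adjusted p = 0.771) for FK866 plus succinate against FK866.

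Over all members 60 regions were found among 101424 in the series, 18 of them (30.0%) shared by all 6 libraries, beside 21.7% of all regions, and 23 (38.3%) seen in 1, beside 49.4%. A region counted as lost where both libraries of the second group named had a peak and neither of the first had, and as gained the other way round. Between FK866 and Control 3 of 60 were lost (2 at Bcl2l1, 1 at Bbc3), beside 2.04% of all regions, and 1 was gained, at Bcl2l1, beside 1.4%. In FK866 plus succinate against FK866 1 was lost, beside 1.68%, and 1 gained, beside 2.76%, both at Bcl2l1. The lost one, centred 60741 bp downstream of the nearest start, was the one gained with FK866, and its length was 389 and 616 bp with FK866 and 0 bp in the other 4 libraries. Between FK866 plus succinate and Control 2 were lost, beside 2.06%, and 1 gained, beside 2.44%, again all at Bcl2l1. Those at Bcl2l1 were weak, at percentiles between 6.61 and 42.2 of their libraries, and the lost one at Bbc3 stood at 52.8 and 14.9 in Control.

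**Figure D3:**
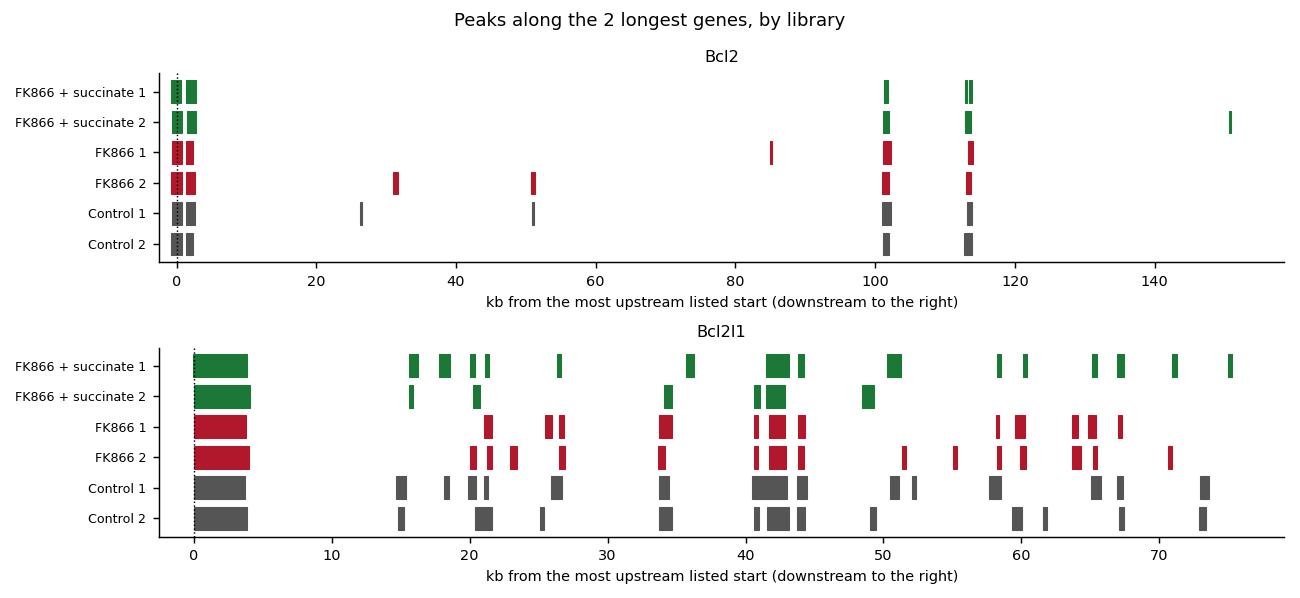
Peaks along Bcl2 and Bcl2l1, in kb from the most upstream listed start (horizontal axes, downstream to the right), 1 row per library. The 4 shared regions of Bcl2 stand in every row, while most of the 27 regions of Bcl2l1 appear in some rows only.

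Over their whole windows the effectors varied little. Bax covered 2327 and 2392 bp with FK866 plus succinate, 2384 and 2490 bp with FK866, and 2473 and 2387 bp in Control, with all groups overlapping (log2 change 0.0034, SE 0.069, limma adjusted p = 1.0 for FK866 against Control). This window also takes in part of a region over the start of Ftl1, a ferritin gene. Over its full length that region covered 1916 and 1983 bp with FK866 plus succinate and 2188 and 2332 bp with FK866. In Control it covered 1994 and 2053 bp, so FK866 was highest without overlap (log2 change 0.13, SE 0.039, limma adjusted p = 0.510 against Control). The start region of Bax, chr7:45465325-45467172, is therefore given apart. It covered 1639 and 1704 bp with FK866 plus succinate, 1696 and 1783 bp with FK866, and 1786 and 1848 bp in Control. Both Control libraries were the widest, and the 2 treated groups overlapped (log2 change -0.09, SE 0.041, limma adjusted p = 0.487 for FK866 plus succinate against Control).

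Bak1 had close replicates. Peaks covered 2361 and 2421 bp with FK866 plus succinate, 2631 and 2655 bp with FK866, and 2590 and 2570 bp in Control. Both FK866 plus succinate libraries were below the other 4, and the FK866 libraries were just above Control. The log2 change was -0.12 (SE 0.066, limma adjusted p = 0.665) for FK866 plus succinate against FK866 and 0.03 (SE 0.066, adjusted p = 1.0) for FK866 against Control. Without the 2 kb on each side the first was -0.016, and FK866 lay below Control. The start region of Bak1 alone, chr17:27027124-27028907, covered 1627 and 1609 bp with FK866 plus succinate, 1740 and 1752 bp with FK866, and 1784 and 1758 bp in Control. Here FK866 lay below Control, the reverse of the whole window. The window's other region holds the start of the neighbour Ggnbp1 and runs past the window's edge, so only part of it was counted. Over its full length it covered 945 and 1036 bp with FK866 plus succinate and 1081 and 979 bp with FK866. In Control it covered 1031 and 1178 bp, and all groups overlapped.

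Among the BH3-only genes Bid, whose product is cut by caspase-8 and links death receptors to mitochondria, had the largest log2 change. Peaks covered 2257 and 3449 bp with FK866 plus succinate, 1493 and 2385 bp with FK866, and 1465 and 2064 bp in Control. Both FK866 plus succinate libraries were above both Control libraries but overlapped FK866. The log2 change was 0.56 (SE 0.28, limma adjusted p = 0.645) against Control and 0.46 (SE 0.28, adjusted p = 0.690) against FK866. Both turned with stronger peaks alone: over peaks with an adjusted p under 0.05 they were -0.19 and -0.053, and over the higher-scoring 50% of each list -0.087 and -0.053. The added length lay in small peaks at the gene's far side, since the start peak, chr6:120915636-120917377, covered between 1448 and 1722 bp in every library. Of the 6 regions of Bid 4 (66.7%) had a peak in 1 library only, beside 49.4% of all regions. All 4 were in FK866 plus succinate libraries, at percentiles of 3.03 to 42.1. The share of all such regions found in those libraries was not counted. Bid held 3 and 4 peaks with FK866 plus succinate, 1 and 2 with FK866, and 1 and 2 in Control. It was the 1 member of 10 with more peaks in FK866 plus succinate than in FK866 without overlap, beside 11.8% of genes, and than in Control, beside 8.35%, while 0 had fewer, beside 3.22% and 4.05%. The FK866 plus succinate lists were also the longest on average, and the part of this in Bid was not tested.

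Bcl2l11 encodes BIM, a BH3-only protein that acts when growth factors are withdrawn from lymphocytes. Peaks covered 3891 and 2567 bp with FK866 plus succinate, 3018 and 2961 bp with FK866, and 3500 and 3405 bp in Control. FK866 was below Control, and FK866 plus succinate spanned both. The log2 change was -0.18 (SE 0.18, limma adjusted p = 1.0) for FK866 against Control. It turned to 0.083 with peaks of adjusted p under 0.05 or the higher-scoring 50%, and to 0.014 with lists of equal length. Against Control the change with FK866 plus succinate was -0.37 without its first library and 0.15 without its second, and against FK866 -0.19 and 0.33. Its start region, chr2:128125472-128128194, takes in both listed starts, the first of them with the FOXO letters printed above, and covered between 2560 and 2670 bp in every library. The difference was again in small peaks, within the gene and in 1 region centred 1611 bp upstream of the start. Without the 2 kb on each side the log2 change for FK866 against Control was -0.30.

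Bbc3 encodes PUMA, a BH3-only protein that binds all survival proteins, and its start peak was among the widest of each list. The start region, chr7:16309296-16314075, spans 3 listed starts and covered 4734 and 4745 bp with FK866 plus succinate, 4761 and 4761 bp with FK866, and 4775 and 4780 bp in Control. The peak was wider than 99.97% of the peaks of every library, while its fold enrichment over background was 2.79 to 3.26. Its highest point lay between 3124 and 4269 bp downstream of the most upstream listed start. The 3 groups did not overlap, although all libraries lay between 4734 and 4780 bp, and the log2 change was -0.0045 (SE 0.016, limma adjusted p = 1.0) for FK866 against Control. Over the whole window peaks covered 4734 and 5118 bp with FK866 plus succinate, 4761 and 4761 bp with FK866, and 5144 and 5519 bp in Control. The distance between FK866 and Control was a second region of up to 739 bp, which had a peak in both Control libraries, in 1 FK866 plus succinate library and in 0 FK866 libraries (whole window: log2 change -0.15, SE 0.083, limma adjusted p = 1.0). It was -0.053 with peaks of adjusted p under 0.05 or the higher-scoring 50%, and -0.0045 without the 2 kb on each side.

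Bad, whose protein is held inactive by growth factor signalling through phosphorylation, covered 4230 and 4142 bp with FK866 plus succinate, 4798 and 4466 bp with FK866, and 4705 and 4312 bp in Control. FK866 plus succinate was below the other groups without overlap, at a log2 change of -0.13 (SE 0.084, limma adjusted p = 0.711) against FK866. Without the 2 kb on each side this was -0.014, and the groups overlapped. The start region, chr19:6940813-6943065, also holds the start of the neighbour Gpr137, so the 2 genes share these values. Pmaip1, which encodes NOXA, covered 1999 and 2195 bp with FK866 plus succinate, 1916 and 2078 bp with FK866, and 2175 and 1930 bp in Control. It had a single peak in every library, all groups overlapped, and its log2 change was -0.03 (SE 0.091, limma adjusted p = 1.0) for FK866 against Control.

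**Figure D4:**
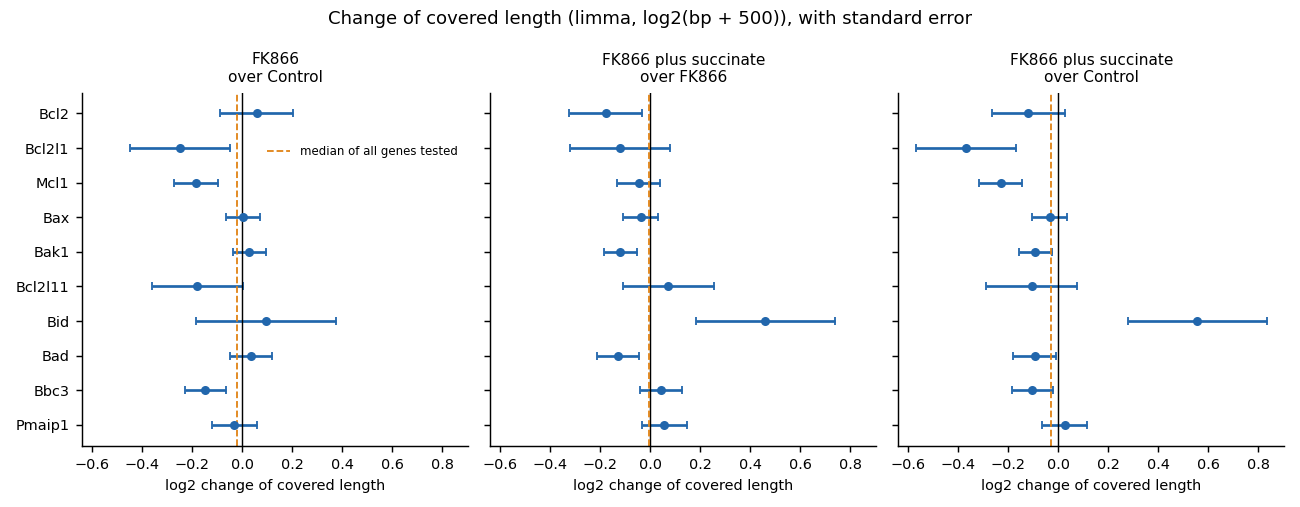
log2 change of covered length (horizontal axes) for the 10 genes in the 3 comparisons, with points for limma estimates, bars for 1 standard error and a dashed line for the median of all genes tested. Estimates of Bcl2l1 and Bid have wide bars, those of Bax and Bak1 narrow ones, and none passed the adjusted threshold.

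None of the 10 genes passed by its strongest peak either. Of the 14038 genes with a peak in all 6 libraries limma on log2(P/(100 - P)), with P the percentile, called 7 genes (0.0499%) for FK866 against Control, 31 (0.221%) for FK866 plus succinate against FK866 and 31 (0.221%) for FK866 plus succinate against Control, with 0 of the 10 members in each. At an unadjusted p of 0.05 limma passed 289 genes (2.06%), 1330 (9.47%) and 741 (5.28%) in the same 3 comparisons, again with 0 members. This scale moved for the genome as a whole. The median change was -0.11 over the members and -0.15 over all genes for FK866 against Control, 0.31 and 0.33 for FK866 plus succinate against FK866, and 0.29 and 0.18 for FK866 plus succinate against Control. In lists of equal length the medians were 0.029 over the members and -0.0035 over all genes for FK866 against Control, 0.012 and -0.0092 for FK866 plus succinate against FK866, and 0.12 and -0.010 for FK866 plus succinate against Control. In the lists as deposited, 4 members stood higher without overlap in FK866 plus succinate than in FK866 (Bcl2l1, Mcl1, Bax and Bcl2l11), beside 41.9% of all genes, and Bid stood lower, beside 5.06%. Between FK866 and Control, Bad stood higher, beside 5.46%, and Bcl2 and Bax lower, beside 23.1%. With FK866 plus succinate against Control, Mcl1 and Bad stood higher, beside 20.9%, and Bak1 lower, beside 7.37%. In lists of equal length, Bcl2l1 and Bad stood higher in FK866 than in Control, beside 15.3% of genes, and 0 lower, beside 16.6%. Bcl2l11 stood higher in FK866 plus succinate than in FK866, beside 17.5%, and Bak1, Bid and Bbc3 lower, beside 20.4%. Bcl2l1, Bcl2l11 and Bad stood higher in FK866 plus succinate than in Control, beside 18.7%, and Bak1 lower, beside 21.6%.

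Bad was at percentile 92.5 and 94.3 with FK866 plus succinate, 90.7 and 93.7 with FK866, and 89.9 and 88.0 in Control. All 4 treated libraries were above both Control libraries (log2 change 0.82, SE 0.50, limma adjusted p = 0.968 for FK866 plus succinate against Control). In lists of equal length Bad was at 91.5 and 92.0 with FK866 plus succinate, 90.7 and 93.2 with FK866, and 87.4 and 87.8 in Control, again with all 4 treated libraries above Control (log2 change 0.66, SE 0.34, limma adjusted p = 0.585 for FK866 plus succinate against Control). Bcl2 was at 81.7 and 89.8 with FK866 plus succinate, 79.0 and 82.4 with FK866, and 82.8 and 82.8 in Control. The second FK866 plus succinate library set the mean of that group (log2 change 0.58, SE 0.31, limma adjusted p = 0.532 against FK866). Bid and Bak1 ranked highest among the members, at 91.6 to 96.7 and at 90.4 to 95.5 over the 6 libraries, and Bbc3 lowest, at 75.5 to 82.4.

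**Figure D5:**
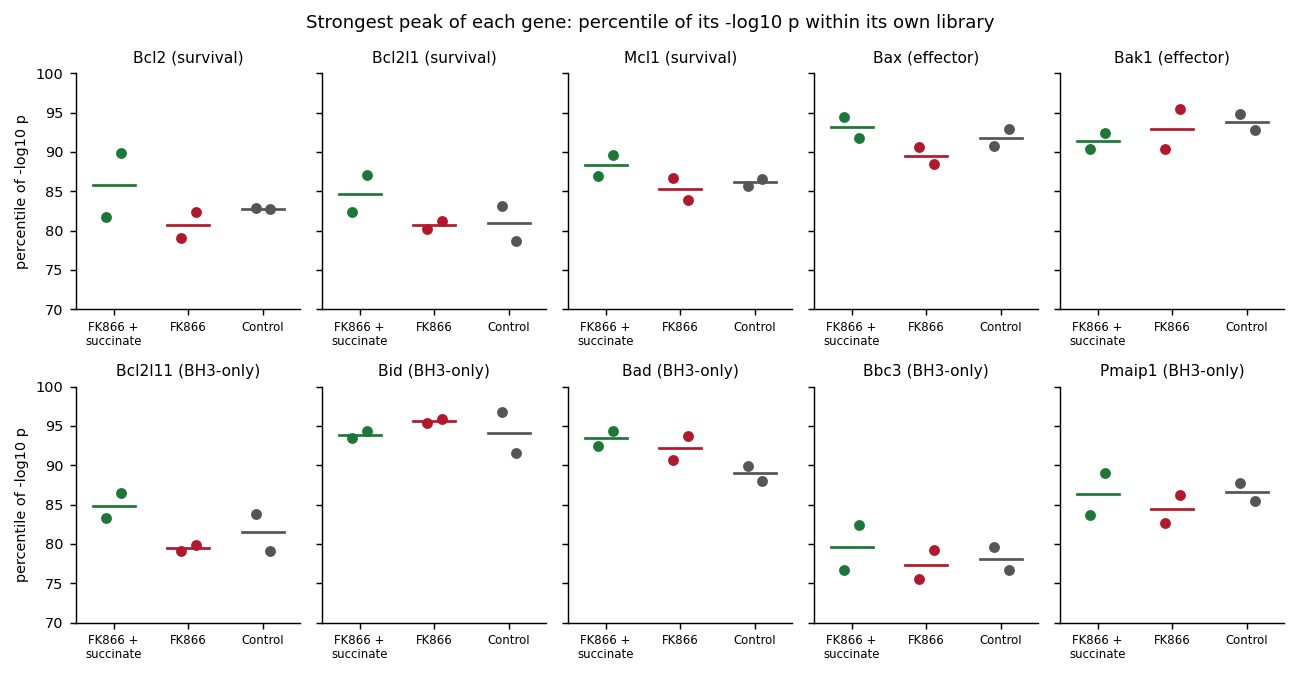
Percentile of the -log10 p of each gene's strongest peak within its own library (vertical axes, from 70 to 100), with points for libraries and bars for means of 2. Bad lies higher in all 4 treated libraries than in Control, and Bid, Bak1, Bax and Bad stand above Bbc3 throughout.

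Per length of window, the members ranged widely. The mean share of the window under peaks was 35.9% at Bbc3, 31.6% at Bad, 27.7% at Mcl1, 26.2% at Bax, 19.8% at Bak1, 18.7% at Pmaip1, 14.2% at Bcl2l1, 7.96% at Bcl2l11, 7.82% at Bid and 2.70% at Bcl2, beside a median of 8.15% over all genes tested. Over the 6 libraries the ranges of neighbours in this order overlapped from Bbc3 to Bax, from Bak1 to Bcl2l1, and between Bcl2l11 and Bid. They did not overlap between Bax and Bak1, between Bcl2l1 and Bcl2l11, or between Bid and Bcl2, the gene with the longest window. By strongest peak 4 of the 10 members (Bid, Bak1, Bad and Bax) had a mean percentile above the median of 87.2 over all genes.

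Genes around the family gave 0 calls in every list, and at an unadjusted p of 0.05 limma passed 0 to 2 genes of a list in each comparison. Of 13 other BCL2 family genes 9 were tested, and the smallest unadjusted p of each comparison fell on Bok, Bik and Bcl2a1d. Bik, a BH3-only gene, covered 3650 and 3420 bp with FK866 plus succinate, 2434 and 2139 bp with FK866, and 3182 and 2085 bp in Control, with FK866 plus succinate above the rest (log2 change 0.54, SE 0.19, limma adjusted p = 0.530 against FK866). Bcl2a1d, a survival gene with near-identical copies between which reads can be shared, gave a log2 change of -0.40 (SE 0.13, limma adjusted p = 0.505) for FK866 plus succinate against Control. All 8 caspase and apoptosome genes were tested, and Casp9, the initiator caspase of the apoptosome, had the smallest p in both comparisons with Control (log2 change -0.51, SE 0.31, limma adjusted p = 1.0 with FK866). All 8 inhibitor of apoptosis genes and antagonists were tested. Birc2, which encodes cIAP1, covered 3927 and 3811 bp with FK866 plus succinate, 2805 and 3125 bp with FK866, and 3350 and 3153 bp in Control, highest in FK866 plus succinate (log2 change 0.34, SE 0.085, limma adjusted p = 0.440 against FK866).

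Of 8 death receptor and adaptor genes 7 were tested, with Fas, Ripk1 and Tradd at the smallest p of the 3 comparisons and adjusted p between 0.637 and 1.0. All 13 upstream regulators were tested. Il2ra, the high-affinity chain of the receptor for the IL-2 in the medium, covered 9922 and 8659 bp with FK866 plus succinate, 7680 and 7707 bp with FK866, and 9697 and 9137 bp in Control. FK866 was below both other groups without overlap, at a log2 change of -0.27 (SE 0.097, limma adjusted p = 0.906) against Control. FK866 plus succinate against FK866 gave 0.25 (SE 0.097, limma adjusted p = 0.562). Of the 8 mitochondrial partners all were tested, and Vdac1, a channel of the outer membrane, covered 3628 and 3410 bp with FK866 plus succinate, 2620 and 2814 bp with FK866, and 2762 and 2895 bp in Control. FK866 plus succinate was above both other groups (log2 change 0.32, SE 0.079, limma adjusted p = 0.440 against FK866), and this gene too did not pass. The genes with the smallest p not described above (Bok, Casp2, Birc3, Stat5b and Bag1) had limma adjusted p between 0.628 and 1.0.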

How the data were processed

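The data were peak lists, 1 per library, for 6 CUT&Tag libraries in 3 groups taken from the sample labels. Per the submitters' processing notes, cutadapt 1.9 and Bowtie2 2.5.0 were used with the build mm10. No source used here names the peak caller or its threshold. The authors deposited, for each peak of a library, a fold enrichment (a ratio over background), a -log10 p, a -log10 adjusted p and the summit offset. Read depth is unknown, so no counting interval can be given. These values depend on depth and were used only within a list.

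Peaks on 21 chromosomes were kept, and 43 to 55 on other sequences were dropped per library. Gene spans came from a RefSeq table of GRCm38.p6, whose coordinates are those of mm10, for protein-coding genes. Covered length, number of peaks and the percentile of the strongest peak were computed in Python 3.11.15 (numpy 2.4.6, pandas 2.3.3). limma 3.58.1 in R 4.3.3 (lmFit, eBayes with a trend, 6 libraries, Benjamini-Hochberg adjustment) was tested on simulated data. For percentiles limma set each gene's spread entirely from the trend, so those p-values can be too small. The members and lists were chosen with earlier results of these data known. All 10 members are named, and of each other list the gene with the smallest p per comparison. Alternatives covered the pseudocount, scaling, filters, peak thresholds, the 2 kb on each side, a replicate block and each left-out library.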

Additional observations from a re-analysis of the deposited data

How the results depend on the processing

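No member passed the adjusted threshold under any alternative: the smallest limma adjusted p over 170 fits of covered length per comparison was 0.741 for FK866 against Control, 0.412 for FK866 plus succinate against FK866 and 0.171 (Bcl2l1, peaks with an adjusted p under 0.05) for FK866 plus succinate against Control. Over 150 fits of percentiles per comparison it was 0.831, 0.142 and 0.383. Counts are given below in the order FK866 against Control, FK866 plus succinate against FK866, FK866 plus succinate against Control. For covered length the share of the window gave 11, 11 and 24 genes and no filter 25, 18 and 41. Keeping only peaks past an adjusted p of 0.05 gave 0, 1 and 1, as did the higher-scoring 50% of each list, and the merged regions and the robust spread, both added after seeing the data, gave 0. For percentiles quantile normalization gave 2, 4 and 9, the stricter peak threshold 2, 14 and 18, lists of equal length 2, 6 and 12, the higher-scoring 50% 3, 6 and 11, no flank 4, 25 and 14, no filter 1, 4 and 6, and the robust spread 4, 15 and 11. The replicate numbers did not pair the samples (correlations of deviations from -0.13 to 0.12), and with a replicate block 0 genes passed on covered length in each comparison and 5, 10 and 12 on percentiles. Leaving out 1 library gave 0 genes on covered length, and 5 to 9, 9 to 105 and 10 to 62 on percentiles, the highest without the first FK866 plus succinate library. The median change of the members moved to 0.021, -0.071 and -0.088 with quantile normalization. Without the flank it was -0.033, -0.015 and -0.067. For FK866 against Control it was -0.024 with peaks of adjusted p under 0.05, 0.0085 with lists of equal length and -0.032 with the higher-scoring 50%. For FK866 plus succinate against Control it was -0.11 with a pseudocount of 100 bp, -0.082 with lists of equal length and -0.089 with the higher-scoring 50%. Leaving out 1 library gave -0.12 to 0.0024, -0.071 to -0.013 and -0.11 to -0.063, so its sign for FK866 against Control rests on single libraries. The cause was not tested. Mcl1 stayed lower without overlap in FK866 and in FK866 plus succinate than in Control under every list tried and without the flank. For FK866 against Control its log2 change was -0.18 in each of these settings, since all kept the same start peak. Leaving out a library could not change the order, because groups apart with all libraries stay apart with fewer. With 1 library left out, 4 to 6 members were lower without overlap for FK866 against Control (33.5% to 43.7% of genes), 2 to 6 for FK866 plus succinate against FK866 (34.0% to 40.9%) and 4 to 7 for FK866 plus succinate against Control (36.1% to 44.6%). Without the second FK866 plus succinate library they were 6 against FK866, beside 40.9% of genes, and 6 against Control, beside 44.6%. Those higher, in the same 3 comparisons, were 2 to 4 (25.4% to 30.1%), 0 to 3 (28.8% to 39.5%) and 1 to 2 (22.7% to 34.0%). The members' median percentile change was 0.030, 0.013 and 0.13 with quantile normalization, 0.020, -0.085 and 0.019 with peaks of adjusted p under 0.05, and 0.047 for FK866 against Control without the first Control library. Without the second FK866 plus succinate library it was 0.060 against FK866 and -0.0058 against Control.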
